A study of Arabidopsis thaliana with 6 samples.

Results

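The transcripts of 10 genes that lead from 4-coumarate to flavonol glycosides were compared between the hy5 mutant and wild-type Arabidopsis thaliana seedlings. The genes were taken by locus identifier from the known pathway, and all 10 of them were present among the 26984 genes of the expression tables. The hy5 group consisted of 3 libraries, numbered 4 to 6, of seedlings with the mutant allele hy5-215. The Col_0 group consisted of 3 wild-type libraries, numbered 1 to 3. All 6 libraries were RNA-seq profiles of seedlings aged 7 days and raised under short days, with zeitgeber time 20 h as the time of sampling. No further allele or treatment is given by the labels, nor whether plants were pooled.

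Flavonols are UV-absorbing phenolic compounds that plants make from phenylalanine by way of the general phenylpropanoid pathway. A 4-coumarate:CoA ligase (4CL3) supplies the activated starter, chalcone synthase (CHS) extends it with malonyl-CoA to a chalcone, and chalcone isomerase (CHI) closes the ring to a flavanone. CHIL, a non-catalytic relative of CHI, is known to assist CHS. Flavanone 3-hydroxylase (F3H) makes dihydroflavonols, the P450 enzyme TT7 adds a hydroxyl group that leads to quercetin in place of kaempferol, and flavonol synthase (FLS1) makes the flavonol. Sugar transferases then attach rhamnose (UGT78D1) or glucose (UGT78D2) to the 3-O position and rhamnose (UGT89C1) to the 7-O position. In seedlings the branch is known to be induced by light, and HY5 is a basic leucine zipper (bZIP) factor that binds DNA elements with an ACGT core, the best known of which is the G-box.

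The windows upstream of CHS, CHIL, F3H and CHI are shown because they are the 4 of the 10 genes with a G-box within 250 nt before to 50 nt after the annotated 5′ end, and because the first 3 of these transcripts were lower in hy5 while that of CHI did not pass the test. Sequences are from the RefSeq TAIR10.1 assembly, 5′ to 3′ on the strand of the gene. Capitals mark every ACGT core, extended to 6 letters where it is, on either strand, the G-box CACGTG, the C-box GACGTC, the A-box TACGTA, the hybrid box CACGTC, the hybrid box CACGTA or the hybrid box CACGTT. They also mark, on either strand, the AC elements ACCTAC (known as a MYB recognition site) and ACCAAC (likewise). The window of CHS is chr5:4488226-4488525, plus strand, that of CHIL chr5:1563036-1563335, plus strand, that of F3H chr3:19024942-19025241, plus strand and that of CHI chr3:20431548-20431847, minus strand.
CHS: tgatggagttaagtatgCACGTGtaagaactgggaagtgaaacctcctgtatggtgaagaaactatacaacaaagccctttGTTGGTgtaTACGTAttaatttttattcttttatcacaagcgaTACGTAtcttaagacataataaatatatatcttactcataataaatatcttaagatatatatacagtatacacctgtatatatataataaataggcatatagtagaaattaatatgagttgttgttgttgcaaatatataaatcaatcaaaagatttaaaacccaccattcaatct
CHIL: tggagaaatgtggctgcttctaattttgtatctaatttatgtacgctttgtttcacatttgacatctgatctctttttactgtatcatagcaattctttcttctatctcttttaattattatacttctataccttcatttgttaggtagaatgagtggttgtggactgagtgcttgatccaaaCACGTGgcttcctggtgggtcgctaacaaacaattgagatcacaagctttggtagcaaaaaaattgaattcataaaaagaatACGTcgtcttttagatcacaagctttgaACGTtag
F3H: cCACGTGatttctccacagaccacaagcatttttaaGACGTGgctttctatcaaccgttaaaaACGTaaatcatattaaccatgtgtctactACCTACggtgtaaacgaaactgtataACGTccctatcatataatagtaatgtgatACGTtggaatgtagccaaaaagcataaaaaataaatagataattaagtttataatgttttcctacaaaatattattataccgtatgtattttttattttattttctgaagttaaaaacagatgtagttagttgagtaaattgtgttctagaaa
CHI: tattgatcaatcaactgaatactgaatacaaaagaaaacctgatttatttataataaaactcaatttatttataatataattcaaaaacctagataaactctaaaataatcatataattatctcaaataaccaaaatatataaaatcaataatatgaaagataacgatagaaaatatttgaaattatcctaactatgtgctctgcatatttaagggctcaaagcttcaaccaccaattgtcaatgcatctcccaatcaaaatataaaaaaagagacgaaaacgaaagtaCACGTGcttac

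Counted along the strand of the gene, with the first transcribed base as 1, the G-box began at -233 in CHS, -67 in CHIL, -249 in F3H and 40 in CHI, so that the one of CHI lay inside the annotated transcript. A G-box was present in 7.66% of 26983 windows of the same length. CHS also held a pair of TACGTA boxes, at -160 and -126, and F3H held 4 more ACGT cores and an ACCTAC element at -158. Of the 10 genes, 6 had at least 1 ACGT core in the window, against 49.9% of all windows, and the counts of the 6-letter boxes overlap with that of the core. FLS1 and UGT89C1 were the other 2, each with a CACGTA box, at 29 and -119. The box of FLS1, a transcript that was lower in hy5, thus also lay inside the annotated transcript. No ACGT core was found in this window for 4CL3, TT7, UGT78D1 or UGT78D2. Of these, the 4CL3 and UGT78D2 transcripts were lower in hy5. The ACCTAC element was found in 4CL3, at -120 and -68, in F3H and in UGT89C1, at -193 and -99, against 5.43% of all windows. The ACCAAC element was found only in CHS among the 10 genes, at -169, against 13.8% of all windows. With the window lengthened to 1000 nt, TT7 gained a G-box at -550. A G-box was then held by 5 of 10 genes, against 15.4% of all windows. An ACGT core was held by 9 of 10 genes, against 85.4% of all windows. The gene without one was UGT78D2, whose transcript was lower in hy5. The TT7 transcript did not pass the test. These matches are descriptions of letters in the reference sequence, and binding was not measured.

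**Figure D1:**
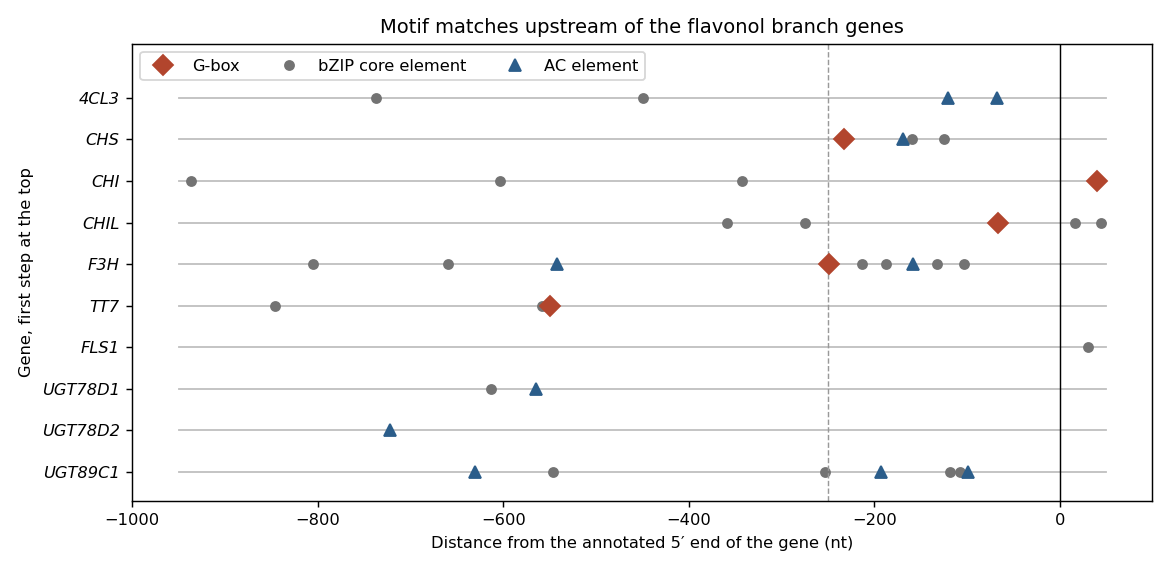
Each line is the stretch from 950 nt before to 50 nt after the annotated 5′ end of a gene (x axis, nt). Diamonds mark a G-box, circles an ACGT core (bZIP core element in the key) and triangles an AC element, and the dashed line marks the 250 nt limit of the shorter window, within which CHS, CHIL, F3H and CHI have their G-box.

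Library facts were as follows. Levels are FPKM as deposited by the authors, a fragment count divided by gene length and by the mapped total of the library. They summed to between 528554 and 556418 per library, and 16859 to 17123 genes reached 1 FPKM. HY5 itself stood at 3.04, 1.88 and 3.02 FPKM in hy5 4, 5 and 6, against 13.4, 13.0 and 13.9 FPKM in Col_0 1, 2 and 3 (limma adjusted p = 5.4e-07). HYH, the closest relative of HY5, was at 2.08 to 3.49 FPKM in hy5 and 23.3 to 26.3 FPKM in Col_0 (limma adjusted p = 7.8e-09). Separate plantings are not named in the labels, and the p-values therefore cover only library-to-library spread, which may be technical. Among tissue markers, the 8 seed storage genes summed to 3.65 to 14.3 FPKM in hy5 and 47.5 to 280 FPKM in Col_0. OLEO1, OLEO2, SESA1, SESA3 and SESA5 of the 7 tested members were lower in hy5, against 11.1% of all tested genes. SESA1, SESA3 and SESA5 reached 1 FPKM only in Col_0, so these could be counted only if lower in hy5. All 5 calls were lost without hy5 6, and all but that of OLEO2 also without other single libraries (limma adjusted p = 0.054 to 0.19 where lost). The seed coat genes BAN, TT12, TT2 and TT16 were listed at 0 in all 6 libraries, and the other 2 of that list were under 0.5 FPKM. The 6 green shoot genes summed to 29500 to 33400 FPKM in hy5 and 28700 to 33600 FPKM in Col_0, with LHB1B1 and STM higher in hy5. The 8 root genes summed to 1970 to 2090 FPKM in hy5 and 1420 to 1640 FPKM in Col_0. PYK10 made up nearly all of these sums, at 1927.04 to 2049.84 FPKM in hy5 and 1392.42 to 1606.47 FPKM in Col_0. The sums therefore do not describe the root genes as a set. PYK10, SHR and IRT1 were higher and EXPA18 lower in hy5, against 11.7% of all tested genes called higher and 11.1% lower. EXPA7, COBL9 and WER did not pass (log2 fold changes -0.37, -0.36 and 0.03), and the median of the 7 tested was 0.03. The SHR, IRT1 and EXPA18 calls were each lost without some single libraries (limma adjusted p = 0.057 to 0.15). Both shoot and root genes were thus detected, as the label seedling says. The part of these markers in the results below was not tested.

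Most of the branch was lower in hy5. Of the 10 genes, 7 fell (limma adjusted p under 0.05 over 17205 genes) and 3 did not pass, while 11.1% of all tested genes were called lower in hy5 and 22.8% were called in either direction. In these 7, every hy5 library was also below every Col_0 library, as in 19.5% of all tested genes. In whole seedlings, fewer cells of a type cannot be told apart from less RNA per cell. The 7 were 4CL3, CHS, CHIL, F3H, FLS1, UGT78D2 and UGT89C1. The 3 others were CHI, TT7 and UGT78D1. For 4CL3, F3H and FLS1 only Col_0 libraries reached the level of 1 FPKM needed for testing, so these 3 had to be lower in hy5 to be counted. Among the 7 genes with at least 1 FPKM in every library, 4 fell, against 10.6% of the 15865 genes tested that met the same condition. The median log2 fold change of the 10 genes was -0.84, and that of all tested genes was 0.00. Fold changes below are given on the log2 scale of FPKM + 1, hy5 over Col_0, which understates the change of low genes, and the share of the Col_0 mean is given beside them on the plain FPKM scale. Summed over the 10 genes, levels were 47.5, 52.3 and 49.5 FPKM in hy5 4, 5 and 6, against 89.7, 96.3 and 92.5 FPKM in Col_0 1, 2 and 3.

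**Figure D2:**
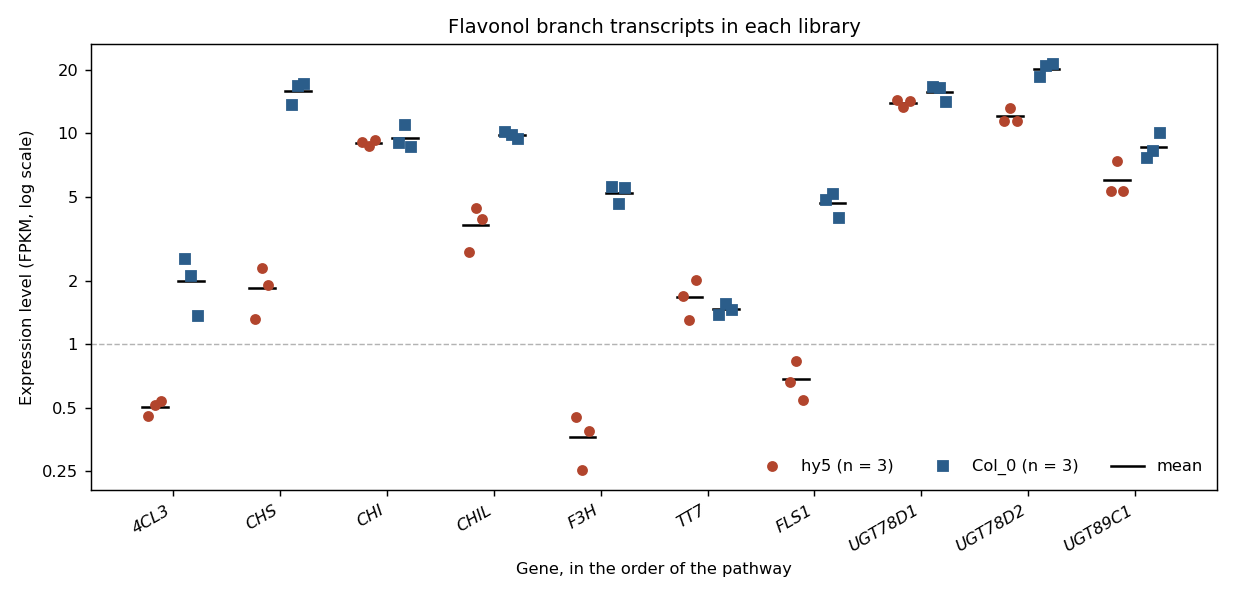
FPKM on a log axis for each gene in pathway order, with circles for the 3 hy5 libraries, squares for the 3 Col_0 libraries and a bar for each mean. The dashed line is the 1 FPKM limit of the filter. The circles and squares do not overlap for 7 of the 10 genes, and they interleave for CHI, TT7 and UGT78D1.

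4CL3 (AT1G65060, minus strand of chromosome 1, 24167202 to 24171635, 6 merged exons) encodes the ligase isoform known for flavonoid synthesis. Its level was 0.459, 0.515 and 0.537 FPKM in hy5 4, 5 and 6, against 2.53, 2.10 and 1.37 FPKM in Col_0 1, 2 and 3. Every hy5 library was below every Col_0 library, and Col_0 3 was the lowest of its group. The hy5 mean was 25.2% of the Col_0 mean (limma log2 fold change -0.98, SE 0.16, adjusted p = 0.00094).

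CHS (AT5G13930, also TT4, plus strand of chromosome 5, 4488476 to 4490264, 2 exons) encodes the entry enzyme of the branch. It was measured at 1.32, 2.30 and 1.92 FPKM in hy5 4, 5 and 6, against 13.6, 16.8 and 17.0 FPKM in Col_0 1, 2 and 3. The groups were far apart, with a hy5 mean of 11.7% of that of Col_0. Its log2 fold change was the furthest from 0 of the 10 (-2.57, SE 0.15, 95% interval -2.89 to -2.25, limma adjusted p = 5.6e-08). Only 1.0% of all tested genes were called with a log2 fold change of -1 or below, and 4 of the 10 genes were, namely CHS, F3H, FLS1 and CHIL. F3H and FLS1 could be counted only if lower in hy5. Among genes with at least 1 FPKM in every library, the share was 0.674% and the branch genes past it were CHS and CHIL, 2 of 7.

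The next enzyme gene did not pass the test. CHI (AT3G55120, also TT5, minus strand of chromosome 3, 20430059 to 20431597, 4 exons) was at 9.04, 8.73 and 9.27 FPKM in hy5 4, 5 and 6, against 8.96, 11.0 and 8.57 FPKM in Col_0 1, 2 and 3. The hy5 libraries lay inside the range of the Col_0 libraries. Its log2 fold change was -0.06 with a 95% interval of -0.31 to 0.19 (limma adjusted p = 0.74), and it was 0.04 without Col_0 2, the highest library.

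CHIL (AT5G05270, plus strand of chromosome 5, 1563286 to 1565324, 5 merged exons) belongs to the same protein family as CHI, but their longest coding sequences were only 57.8% identical over 621 aligned bases. CHIL was at 2.74, 4.404 and 3.93 FPKM in hy5 4, 5 and 6, against 10.2, 9.75 and 9.37 FPKM in Col_0 1, 2 and 3. All hy5 libraries were below all Col_0 libraries, in contrast to CHI, at a Col_0 level close to that of CHI. The hy5 mean was 37.8% of the Col_0 mean (limma log2 fold change -1.21, SE 0.14, adjusted p = 6.2e-05).

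F3H (AT3G51240, plus strand of chromosome 3, 19025192 to 19026872, 3 merged exons) opens the C-ring modifications. Its values were 0.451, 0.254 and 0.388 FPKM in hy5 4, 5 and 6, against 5.55, 4.63 and 5.49 FPKM in Col_0 1, 2 and 3. On the plain scale this was the lowest share of the 10, with a hy5 mean of 6.98% of the Col_0 mean (limma log2 fold change -2.19, SE 0.14, adjusted p = 1.6e-07). With a pseudocount of 0.1 its log2 fold change was -3.54 and that of CHS -3.06, so the order of these 2 genes depends on the pseudocount. Few fragments underlie the hy5 values. The lowest values of genes with 1 transcript clustered at 0.0422 to 0.0481 FPKM times kb, and if that is taken as 1 fragment, F3H rested on about 9 to 16 fragments per hy5 library and 145 to 196 per Col_0 library. Absolute depth is unknown, so these counts are approximate. An annotated antisense lncRNA, AT3G51238, overlaps 1588 nt of F3H, and whether strand was used in quantification is not given in the sources used here, so reads from the 2 cannot be told apart.

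TT7 (AT5G07990, plus strand of chromosome 5, 2560328 to 2563137, 4 exons) encodes the flavonoid 3′-hydroxylase. Its level was low in both genotypes, at 1.69, 1.31 and 2.01 FPKM in hy5 4, 5 and 6, against 1.37, 1.56 and 1.46 FPKM in Col_0 1, 2 and 3. The hy5 libraries spanned a wider range that included all Col_0 values. The log2 fold change was 0.11, with a 95% interval of -0.20 to 0.42 (limma adjusted p = 0.63).

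FLS1 (AT5G08640, plus strand of chromosome 5, 2803833 to 2805606, 3 merged exons) encodes the main flavonol synthase. It was at 0.662, 0.837 and 0.542 FPKM in hy5 4, 5 and 6, against 4.83, 5.16 and 3.98 FPKM in Col_0 1, 2 and 3. No library of hy5 came near those of Col_0. The hy5 mean was 14.6% of the Col_0 mean (limma log2 fold change -1.75, SE 0.14, adjusted p = 2.2e-06). By the same approximate conversion, 20 to 31 fragments per library stood behind it in hy5 and 153 to 183 in Col_0.

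**Figure D3:**
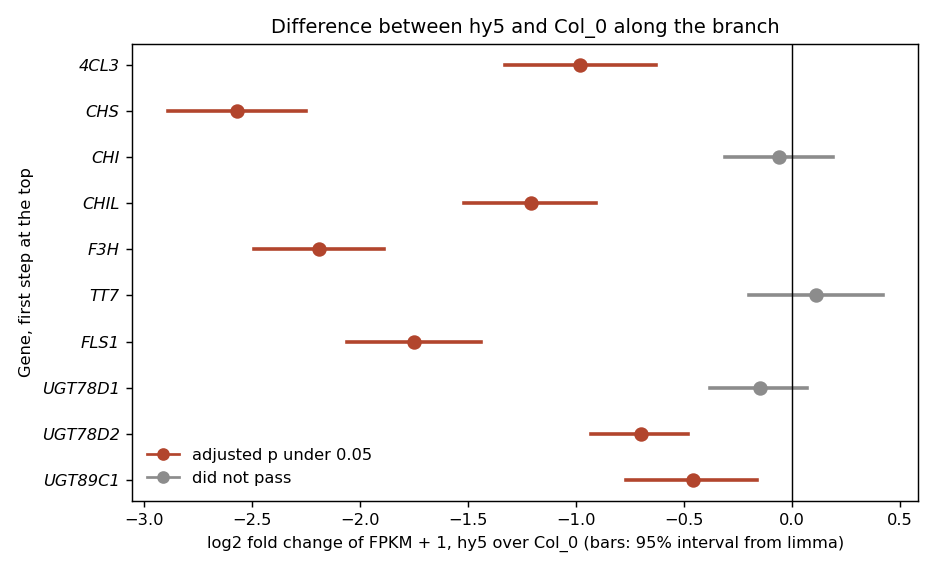
Points are log2 fold changes of FPKM + 1, hy5 over Col_0, and bars are 95% intervals from limma, with the first pathway step at the top. Coloured genes passed an adjusted p of 0.05, and the intervals of CHI, TT7 and UGT78D1 include 0.

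The 3 sugar transferase genes were above 5 FPKM in every library, and 2 of them fell. UGT78D1 (AT1G30530, plus strand of chromosome 1, 10814612 to 10816615, 2 exons), which encodes the flavonol 3-O-rhamnosyltransferase, was at 14.3, 13.4 and 14.2 FPKM in hy5 4, 5 and 6, against 16.6, 16.4 and 14.0 FPKM in Col_0 1, 2 and 3. Col_0 3 fell among the hy5 values, so the groups overlapped. Its log2 fold change was -0.15, with a 95% interval of -0.38 to 0.07 (limma adjusted p = 0.30). UGT78D2 (AT5G17050, minus strand of chromosome 5, 5607788 to 5609589, 2 exons), which encodes the 3-O-glucosyltransferase of flavonols and anthocyanidins, was at 11.4, 13.2 and 11.4 FPKM in hy5 4, 5 and 6, against 18.5, 20.7 and 21.2 FPKM in Col_0 1, 2 and 3. The groups did not overlap, and the hy5 mean was 59.6% of the Col_0 mean (log2 fold change -0.70, SE 0.10, limma adjusted p = 0.00039). The coding sequences of UGT78D1 and UGT78D2 were 81.6% identical. UGT78D2 was 83.6% identical to UGT78D3, which was at 0.0257 FPKM in hy5 6 and listed at 0 in the other 5 libraries.

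UGT89C1 (AT1G06000, minus strand of chromosome 1, 1820308 to 1821894, 1 exon), the flavonol 7-O-rhamnosyltransferase gene, was at 5.34, 7.37 and 5.33 FPKM in hy5 4, 5 and 6, against 7.62, 8.26 and 9.98 FPKM in Col_0 1, 2 and 3. The highest hy5 library, hy5 5, lay just below the lowest Col_0 library. The hy5 mean was 69.8% of the Col_0 mean (log2 fold change -0.46, SE 0.14, limma adjusted p = 0.032). The call was lost with no filter on low values (0.061), with quantile normalization (0.055), and without Col_0 2 (0.052), Col_0 3 (0.084), hy5 4 (0.13) or hy5 6 (0.14). The annotated lncRNA AT1G06002 overlaps 1580 nt of it on the opposite strand, so its reads cannot be told apart either. For none of the 10 genes did another genomic site match its exons at 95% identity or more over at least 100 nt.

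Whether steps differed from CHI in their response was tested on the log2 ratio of each gene to CHI, both as FPKM + 1, within each library, by an exact two-sided permutation test over the 20 arrangements of the libraries. With 3 against 3 libraries the smallest possible p is 0.10, so none of the 9 ratios could pass 0.05. The ratios of CHS, F3H, FLS1, CHIL, 4CL3 and UGT78D2 to CHI were separated between genotypes (exact permutation p = 0.1, adjusted p = 0.15 over 9 ratios, n = 3 each). The log2 fold change of CHI was only -0.06, so each ratio largely repeats the fold change of the other gene, which was -2.57 for CHS. The share of all genes with a separated ratio to CHI was not computed. The CHS to CHI ratio was -1.83 ± 0.28 in hy5 and 0.68 ± 0.20 in Col_0 on the log2 scale of FPKM + 1 (SD, n = 3 each), a difference of -2.51. The size depends on the pseudocount, and the difference was -2.99 with 0.1 and -1.56 with 5 in place of 1. CHIL, equal to CHI in Col_0 within its spread at 0.04 ± 0.17, stood at -1.11 ± 0.29 in hy5 (SD, n = 3 each). The ratio of TT7 to CHI differed by 0.17 and overlapped (exact permutation p = 0.3, n = 3 each). That of UGT78D1 differed by -0.09 and overlapped as well (exact permutation p = 0.4, n = 3 each). UGT89C1, at -0.40, also overlapped (exact permutation p = 0.2, n = 3 each).

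The order of levels along the branch was not the same in the 2 genotypes. In hy5 the order was UGT78D1, UGT78D2, CHI, UGT89C1, CHIL, CHS, TT7, FLS1, 4CL3 and F3H, from 14.0 down to 0.364 FPKM. In Col_0 it was UGT78D2, CHS, UGT78D1, CHIL, CHI, UGT89C1, F3H, FLS1, 4CL3 and TT7, from 20.1 down to 1.46 FPKM. Neighbours whose library ranges overlapped were CHS and TT7 in hy5. In Col_0 they were CHS and UGT78D1, CHIL and CHI, CHI and UGT89C1, F3H and FLS1, and 4CL3 and TT7. In hy5 the lowest FLS1 value, 0.542 FPKM, was barely above the highest of 4CL3, 0.537 FPKM. The lowest 4CL3 value, 0.459 FPKM, was likewise barely above the highest of F3H, 0.451 FPKM. Few fragments set these values, so the order of FLS1, 4CL3 and F3H in hy5 is uncertain. CHS ranked 6 of 10 in hy5 and 2 of 10 in Col_0, whereas CHI ranked 3 in hy5 and 5 in Col_0.

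Genes of the general pathway upstream of the branch and of partner enzymes were described in the same way. Of 12 tested entry and partner genes, 3 rose, 1 fell and 8 did not pass, with a median log2 fold change of 0.02. That is 4 of 12 called, a share not far from the 22.8% of all tested genes called in either direction. The gene that fell was ACC1, which encodes a cytosolic acetyl-CoA carboxylase that makes malonyl-CoA, the extender used by CHS. ACC1 was at 27.9, 26.0 and 25.4 FPKM in hy5 4, 5 and 6, against 38.0, 48.8 and 48.6 FPKM in Col_0 1, 2 and 3 (log2 fold change -0.74, SE 0.11, limma adjusted p = 0.00029). Those that rose were the phenylalanine ammonia-lyase gene PAL1 (log2 fold change 0.44, limma adjusted p = 0.0044), the cinnamate 4-hydroxylase gene C4H (0.33, limma adjusted p = 0.011) and the ligase gene 4CL1 (0.24, limma adjusted p = 0.049). The 4CL1 call was lost under each other scaling, with no filter and without any 1 library (limma adjusted p = 0.052 to 0.20), and the C4H call without hy5 4 (0.070). Among the ligase isoforms, 4CL1 was at 47.3 to 50.7 FPKM in hy5 and 40.7 to 43.1 FPKM in Col_0, above 4CL3 on this per-length scale in every library. The P450 reductase genes ATR1 and ATR2 and CB5-D, which pass electrons to P450 enzymes, did not pass the test.

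Among 7 tested genes of sugar donor supply and flavonol decoration, 1 rose, 1 fell and 5 did not pass, with a median of -0.02. Over all tested genes, 11.7% were called higher and 11.1% lower, so these counts do not set the list apart. The UDP-rhamnose synthesis genes RHM1, MUM4, RHM3 and NRS/ER did not pass, with log2 fold changes between -0.10 and 0.10. OMT1, an O-methyltransferase known to methylate quercetin as well as lignin precursors, was at 118, 109 and 123 FPKM in hy5 4, 5 and 6, against 92.9, 89.4 and 86.4 FPKM in Col_0 1, 2 and 3 (log2 fold change 0.37, SE 0.085, limma adjusted p = 0.0068). DTX35, a vacuolar transporter gene tied to flavonoid metabolism, was at 18.1, 14.3 and 17.9 FPKM in hy5 4, 5 and 6, against 25.8, 25.8 and 27.6 FPKM in Col_0 1, 2 and 3 (log2 fold change -0.63, SE 0.11, limma adjusted p = 0.00098).

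Genes of the competing anthocyanin branch were low. Only 3 of 9 were tested, and all 3 fell, against 11.1% of all tested genes called lower. DFR and LDOX had passed the filter only through Col_0, so the filter partly fixed this count and the median of -1.15. DFR, which draws on the same dihydroflavonols as FLS1, was at 0.210, 0.309 and 0.0306 FPKM in hy5 4, 5 and 6, against 1.65, 1.89 and 1.35 FPKM in Col_0 1, 2 and 3 (limma adjusted p = 0.00018). LDOX was at 0.0670 to 0.509 FPKM in hy5 and 1.75 to 2.57 FPKM in Col_0 (limma adjusted p = 0.00012). The scpl10 gene was at 1.28 to 2.23 FPKM in hy5 and 2.38 to 3.68 FPKM in Col_0 (limma adjusted p = 0.017), a call lost without Col_0 1 (0.070), hy5 4 (0.066) or hy5 6 (0.089). The other 6, among them GSTF12 and AT5MAT, were below the filter. All 6 had every hy5 value below every Col_0 value, as had 10.9% of the 5211 genes below the filter and not at 0 in all libraries. With no filter their limma adjusted p-values ran from 0.0085 to 0.025, while 4.24% of those 5211 genes were called lower.

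The MYB factors that are known to activate the flavonol branch, MYB11, MYB12 and MYB111, were all below the filter. MYB12 was at 0.0677, 0 and 0.0907 FPKM in hy5 4, 5 and 6, against 0.811, 0.469 and 1.05 FPKM in Col_0 1, 2 and 3. All hy5 values were below all Col_0 values, and the limma adjusted p was 0.0042 when no gene was filtered out. MYB111 was at 0.416, 0.178 and 0.542 FPKM in hy5 4, 5 and 6, against 1.22, 0.872 and 0.668 FPKM in Col_0 1, 2 and 3 (limma adjusted p = 0.045 with no filter). MYB11 was listed at 0 in all hy5 libraries and at 0.138, 0.0246 and 0 FPKM in Col_0 1, 2 and 3. Of 7 tested regulators, 1 rose, none fell and 6 did not pass, with a median of 0.22. With 11.7% of all tested genes called higher and 22.8% called in either direction, 1 call among 7 does not set this list apart. The repressor gene MYBL2 was at 13.7, 7.66 and 14.2 FPKM in hy5 4, 5 and 6, against 5.67, 4.99 and 5.48 FPKM in Col_0 1, 2 and 3 (log2 fold change 0.97, SE 0.19, limma adjusted p = 0.0041). MYB4, MYB7 and MYB32, repressors of phenylpropanoid genes, did not pass, with log2 fold changes of 0.22, 0.27 and 0.27.

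Some kelch repeat F-box proteins are known to mark phenylpropanoid enzymes for turnover. The 3 genes of this family that were analysed, AT1G23390, AT1G15670 and AT2G44130, rose in hy5, against 11.7% of all tested genes called higher. AT1G15670 was at 22.3, 19.6 and 22.0 FPKM in hy5 4, 5 and 6, against 13.6, 11.3 and 18.2 FPKM in Col_0 1, 2 and 3 (log2 fold change 0.56, SE 0.14, limma adjusted p = 0.012). AT1G23390, whose groups overlapped, had a log2 fold change of 0.38 (limma adjusted p = 0.026) and AT2G44130 one of 0.30 (limma adjusted p = 0.042). All 3 calls depended on single libraries. That of AT1G15670 was lost without hy5 6 (0.050), that of AT1G23390 with no filter (0.056) and without Col_0 1, Col_0 2, hy5 4 or hy5 6 (0.079 to 0.13), and that of AT2G44130 under 3 rescalings, with no filter and without 4 of the 6 libraries (0.051 to 0.17).

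**Figure D4:**
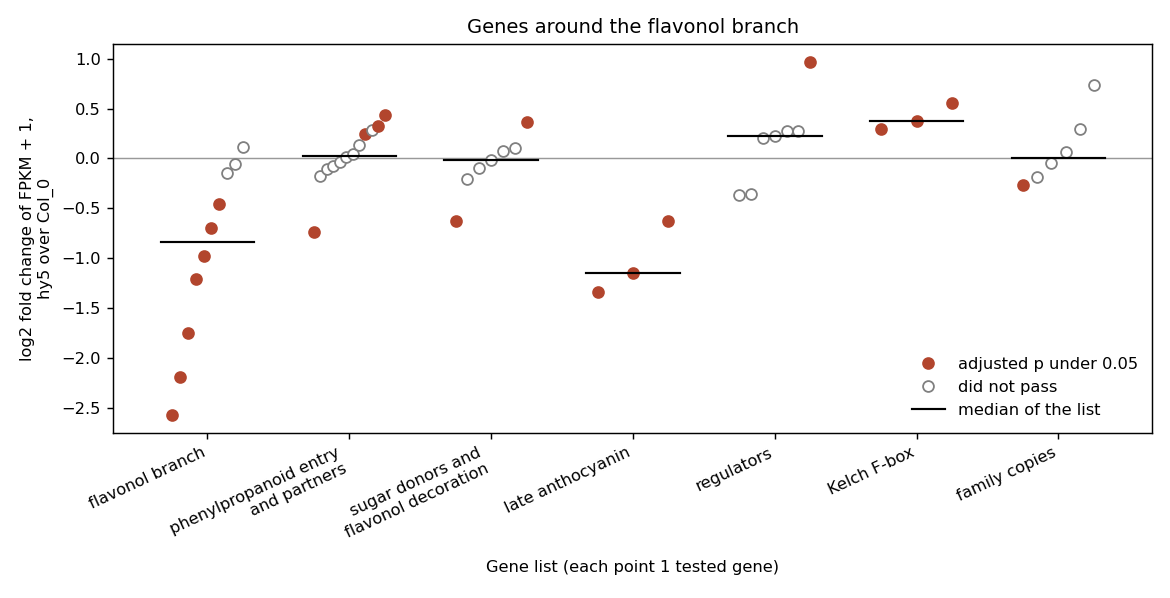
Log2 fold changes of FPKM + 1, hy5 over Col_0, for each tested gene of the branch and of 6 lists around it, filled where the adjusted p was under 0.05, with a bar at the median of each list. Medians are -0.84 for the flavonol branch, 0.02 for the entry list and -1.15 for the 3 tested late anthocyanin genes, of which DFR and LDOX passed the filter only through Col_0.

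Relatives of the branch enzymes gave 1 call among 6 tested, while 22.8% of all tested genes were called in either direction. The call was for FAP3, a plastid fatty acid binding member of the chalcone isomerase family (log2 fold change -0.27, limma adjusted p = 0.048). It was lost without any 1 library (0.052 to 0.16), with median ratio scaling (0.066), with upper quartile scaling (0.052) and with no filter (0.062). FLS5, a gene similar to FLS1 with 69.5% identical coding sequence, was at 53.8, 56.3 and 48.6 FPKM in hy5 4, 5 and 6, against 33.8, 20.03 and 45.1 FPKM in Col_0 1, 2 and 3, and did not pass (limma adjusted p = 0.11). FLS5 was chosen after its values were seen. FLS3 did not pass either, at 4.35 to 5.39 FPKM in hy5 and 3.15 to 4.44 FPKM in Col_0.

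Among 377 other genes called with an absolute log2 fold change of at least 1, those whose log2 levels over the 6 libraries were most like CHS were RUP2, CER1, AT1G22750, FADA and AT4G01150, with Pearson r between 0.994 and 0.998. These libraries share the genotype contrast, so r mostly reflects the difference between genotypes and is a description only. RUP2, a repressor of UV-B signalling, was at 4.46, 5.43 and 4.84 FPKM in hy5 4, 5 and 6, against 10.5, 10.8 and 11.1 FPKM in Col_0 1, 2 and 3. CER1, a wax alkane synthesis gene, was at 1.49, 1.68 and 1.74 FPKM in hy5 4, 5 and 6, against 7.35, 8.26 and 9.54 FPKM in Col_0 1, 2 and 3. FADA encodes a fatty acid desaturase, and AT4G01150 a protein annotated as CURVATURE THYLAKOID 1A-like. Among the branch genes themselves, r with CHS was 0.989 for UGT78D2, 0.983 for FLS1, 0.982 for CHIL, 0.978 for F3H, 0.919 for 4CL3 and 0.860 for UGT89C1. It was 0.638 for UGT78D1, 0.297 for CHI and -0.452 for TT7.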

How the data were processed

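Per the file headers, the authors deposited gene-level FPKM in 1 table per library. Tools named in the submitters' processing notes, with no role or order, are Cufflinks, TopHat, HISAT2 2.2.1.0, Bowtie2, Trimmomatic 0.36 and DESeq 1.18.0, with TAIR10 as the build. An RNAiso Plus kit was used for total RNA, per the labels' protocols. The sources used here give no annotation, strand setting or treatment of shared reads. No pair of libraries had an equal value above 0, so none was a duplicate.

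Sample titles gave the groups and the library numbers. The 17205 genes that reached 1 FPKM in 3 or more libraries were tested, log2(FPKM + 1) was fitted with genotype as the only term in limma 3.58.1 (R 4.3.3, trended and robust empirical Bayes), and p-values were adjusted by Benjamini-Hochberg over all genes tested at a threshold of 0.05. The fit was checked on simulated data. Ratios to CHI, motifs, alignments and figures used Python 3.11.15, NumPy 2.4.6, pandas 2.3.3, SciPy 1.17.1, Biopython 1.88, blastn 2.17.0 and matplotlib 3.10.9, and the RefSeq TAIR10.1 genome and annotation. A planned protein comparison was made on coding sequences.

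The genes and lists were chosen with earlier results of these data known, so no p-value was computed over a list. Genes named are the 10 of the branch, HY5, HYH, MYB11, MYB12 and MYB111, up to 4 called genes per list by smallest p, and the 5 most like CHS; others were named after their values were seen. Of the 65 genes in the 6 lists around the branch, 3 were not analysed here. FPKM depends on library composition, and depth is unknown.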

Additional observations from a re-analysis of the deposited data

How the results depend on the processing

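Alternatives were a pseudocount of 0.1 or 5, a filter at 5 FPKM or none, 3 rescalings between libraries and leaving out each library, with the genes tested held fixed. The count of 7 called branch genes was 4 with a filter at 5 FPKM, 6 to 7 without a library, and 6 with no filter or with quantile normalization. Under the filter at 5 FPKM only 6 of the 10 branch genes could be tested. Of the 7 called, 4CL3, F3H and FLS1 were then not tested, and the other 4 kept the call. Over 126 values of the 10 genes under other settings, 119 kept their direction and side of the threshold, 6 lost the call, all for UGT89C1, and 1 changed sign, CHI, which ran from -0.12 without Col_0 3 to 0.04 without Col_0 2. The log2 fold change of CHS ranged from -2.68 to -2.43 without a library and that of F3H from -2.26 to -2.13, while pseudocounts moved F3H between -3.54 and -0.93. The median log2 fold change over all genes moved to no more than -0.03 in any setting. Counts over all genes ran from 2145 without hy5 6 and 2297 without hy5 4 to 4415 without Col_0 3, against 3915. In the 6 lists around the branch, 14 of 38 tested genes were called, against 22.8% of all tested genes. The 14 calls ran from 8 to 14 without a library (8 without hy5 4 or hy5 6, 9 without Col_0 1). They were 11 with median ratio or upper quartile scaling and 12 with quantile normalization. With a filter at 5 FPKM 11 of 29 tested were called, and with no filter 20 of 59. Of 411 values of 32 other named genes, 334 kept direction and side and 77 lost the call. Of the ratios to CHI, 6 were separated with either other pseudocount, but their sizes moved: with 0.1 and 5 the differences were -3.47 and -0.88 for F3H, -2.99 and -1.56 for CHS, -2.55 and -0.72 for FLS1 and -1.69 and -0.30 for 4CL3, and that of CHIL was -0.72 with 5. Without a library 6 to 8 were separated, a check added after seeing the data. Separation is easier to reach with fewer libraries. No paired analysis was possible because the libraries are numbered 1 to 3 and 4 to 6 and share no number. Depth limits 4CL3, F3H and FLS1 in hy5 and MYB12 in both genotypes, where few fragments set the values.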

Other observations

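Branch genes did not rank the hy5 libraries alike. The library hy5 5 held the highest hy5 value for 5 of the 10 genes, CHS, CHIL, FLS1, UGT78D2 and UGT89C1, and the lowest for 4 others. MYBL2 was lowest in hy5 5 as well, at 7.66 FPKM, against 13.7 and 14.2 FPKM in hy5 4 and 6. In Col_0, the seed storage genes summed to 47.5, 280 and 105 FPKM in libraries 1, 2 and 3. Of the 10 branch genes, 4 were highest in Col_0 1, 3 in Col_0 2 (CHI, TT7 and FLS1) and 3 in Col_0 3. In libraries 1, 2 and 3, CHS stood at 13.6, 16.8 and 17.0 FPKM and F3H at 5.55, 4.63 and 5.49 FPKM. A relation between seed storage and branch levels was not tested.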
